A study of Mus musculus with 16 samples.

Results

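A set of 9 nuclear genes of the mitochondrial tricarboxylic acid (TCA) cycle was followed in mouse hearts, all of them encoding enzymes outside the steps that make and use succinate. They were Cs, Idh2, Idh3a, Idh3b, Idh3g, Ogdh, Dlst, Fh1 and Mdh2, taken by exact gene symbol from the deposited tables, which makes 9 genes of 24371 listed. All 9 passed the filter on low counts, as did 14607 genes in all, and the lowest count of any of them in any library was 8771. The hearts came from 4 groups of 4 libraries each: Gpr91fl/fl mice without succinate (untreated floxed), Gpr91fl/fl mice given succinate (treated floxed), Myh6Cre Gpr91fl/fl mice without succinate (untreated Cre) and Myh6Cre Gpr91fl/fl mice given succinate (treated Cre). Every mouse, the untreated ones included, was put through the same model of HFpEF (heart failure in which the ejection fraction is preserved), made with the nitric oxide synthase inhibitor L-NAME and a high-fat diet over 12 weeks, so that no group shows the genes in a healthy heart. No group with Cre and without the floxed allele is analysed here, so the Cre transgene and the deletion cannot be told apart. The labels give neither age, sex, succinate dose nor route, and do not say that each library was a separate animal, and p-values here can only reflect the library-to-library spread.

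Gpr91 (Sucnr1) is the cell-surface receptor for extracellular succinate, and the Myh6 promoter drives Cre in cardiomyocytes. Inside mitochondria, citrate synthase (Cs) joins acetyl-CoA to oxaloacetate, isocitrate is oxidised to 2-oxoglutarate, the 2-oxoglutarate dehydrogenase complex makes succinyl-CoA, and after the succinate steps fumarase (Fh1) and malate dehydrogenase (Mdh2) regenerate oxaloacetate. Isocitrate is oxidised by an NAD-dependent enzyme built from the catalytic subunit Idh3a with Idh3b and Idh3g, and separately by the NADP-dependent enzyme Idh2, which helps to supply mitochondrial NADPH. The heart relies on this cycle to turn fatty acid, glucose and ketone body carbon into reducing equivalents for the respiratory chain.

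Total counts ran from 27835235 to 34700996 per library, and the 9 genes together took 0.670% to 0.968% of them. Sucnr1 had 0 to 21 counts per library and was not lower in the Cre libraries, so these counts give no check of the deletion and genotype refers to the labels. The ventricular cardiomyocyte markers were abundant, at a summed 37046 to 50700 CPM (counts scaled to a common library size), whereas of 5 atrial genes Sln, Myl7 and Bmp10 had at most 2, 11 and 8 counts in any library, Myl4 had 21 to 86 and Nppa, which is also a stress gene of the ventricle, 1970 to 60375. Untreated Cre replicate 1 stood apart: it was the lowest of its group for all 9 genes and the lowest of all 16 libraries for 8 of them, and it also had the lowest ventricular marker sum (37046 CPM). Treated Cre replicate 3 was the lowest of its group for 7 of the 9 genes and had the next lowest marker sum (38904 CPM). The part of cardiomyocyte content in these low values was not tested, and in bulk tissue fewer cells of a type cannot be told from less RNA per cell. Values of the 9 genes that moved by over 1.5 times without either library are given both ways for the succinate effect in Cre hearts and for the genotype effects within 1 treatment.

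The reference promoters of these genes were read as background to genes that moved together and one that did not. RefSeq promoter entries (GRCm38.p6, a build other than that of the count tables) matched 8 of the 9 genes. Idh3a, which rose most with succinate in floxed hearts, had no entry and is not covered here. The 250 bases before the start were searched on both strands. Stretches of 5 genes are printed 5′ to 3′ on the gene's strand, with the letters of any searched motif in capitals. They are 3 genes that rose with succinate, then Idh2, which was lower in Cre hearts, and Idh3g, which passed in no comparison by edgeR.
Cs (chr10:128337627-128337726, plus strand): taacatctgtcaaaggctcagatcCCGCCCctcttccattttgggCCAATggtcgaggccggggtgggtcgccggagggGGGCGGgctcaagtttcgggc
Dlst (chr12:85110733-85110832, plus strand): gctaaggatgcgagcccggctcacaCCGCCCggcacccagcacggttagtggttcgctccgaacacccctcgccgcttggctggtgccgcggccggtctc
Fh1 (chr1:175625636-175625735, minus strand): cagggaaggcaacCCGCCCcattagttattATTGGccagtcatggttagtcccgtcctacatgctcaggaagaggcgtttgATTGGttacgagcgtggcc
Idh2 (chr7:80115393-80115492, minus strand): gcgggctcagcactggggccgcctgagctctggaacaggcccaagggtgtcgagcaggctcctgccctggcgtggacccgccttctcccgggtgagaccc
Idh3g (chrX:73786933-73787032, minus strand): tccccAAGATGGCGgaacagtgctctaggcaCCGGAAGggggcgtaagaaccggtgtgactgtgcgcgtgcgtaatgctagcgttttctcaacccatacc
The Cs, Dlst and Fh1 stretches each hold the GC box GGGCGG, and those of Cs and Fh1 also hold the CCAAT box. Over the whole 250 bases the GC box was present in 6 of the 8 genes and the CCAAT box in 5, or in 7 and 8 of their 13 entries (6 of them for Ogdh), against 32.7% and 33.8% of 32851 promoter entries. The Idh2 stretch was ended upstream of a further annotated transcript start, so that a CCAAT box running over its end is not capitalised and the GC boxes of Idh2 lie beyond it. Idh3g alone held the ETS/GABP letters CCGGAAG (6.91% of promoters) and the YY1 letters AAGATGGCG (0.606%), and Ogdh alone the E-box CACGTG (6.02%). The oestrogen-related receptor letters AAGGTCA (4.08%), the NRF1 motif (4.98%) and the PPAR direct repeat (0.0335%) were found in none of the 8. A match of letters is a description of the sequence only, and the GC and CCAAT boxes were added after the sequences had been seen.

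Levels were compared between genes on the deposited FPKM scale, which divides by gene length and depth. Mdh2 was the most abundant at a mean of 890.5 FPKM over the 16 libraries (724 to 991), and Dlst the least at 184 FPKM (148 to 222). Between them lay Idh3b (381 FPKM), Cs (378 FPKM), Idh2 (306 FPKM), Idh3g (292 FPKM), Ogdh (252 FPKM), Fh1 (221 FPKM) and Idh3a (193 FPKM). Mdh2 exceeded Idh3b, and Fh1 exceeded Idh3a, in 16 of 16 libraries. Idh3b exceeded Cs in only 8 of 16 and Idh2 exceeded Idh3g in 10 of 16, so these neighbours have no settled order. The catalytic subunit Idh3a was thus the least abundant of the 3 Idh3 subunit transcripts per unit length. The FPKM values use 1 length per gene, 5556 bases for Idh2 and 1282 for Mdh2, and a gene whose heart transcript is shorter than that length is understated.

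**Figure D1:**
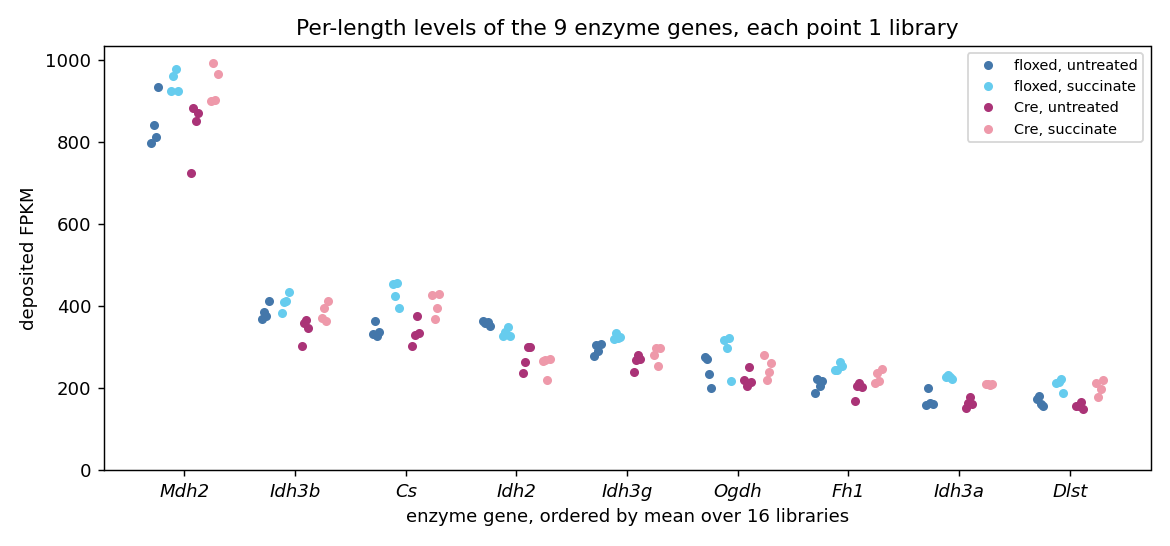
Deposited FPKM (vertical axis, linear from 0) of each of the 9 genes (horizontal axis, ordered by mean), with 1 point per library and 1 colour per group. Mdh2 sits at 724 to 991 FPKM, above the other 8 genes in all libraries, and the Idh2 points of the Cre groups lie below those of the floxed groups.

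In floxed hearts succinate went with higher expression of Idh3a, Cs, Dlst and Fh1, by 1.25- to 1.38-fold, and Idh2 did not take part. These 4 of the 9 genes rose and 0 fell, where 7.48% of all tested genes rose and 5.64% fell. The median log2 fold change of the 9 was 0.28, against 0.0024 over all tested genes. In 6 of the 9 every treated library lay above every untreated one, a separation seen in 10.2% of all genes. In Cre hearts Dlst and Idh3a, the 2 genes whose libraries did not overlap there (4.8% of all genes), rose and 0 of 9 fell, where 0.602% of all genes rose and 0.315% fell, and the median of the 9 was 0.21 against 0.0068 over all genes. Averaged over both genotypes, 5 of 9 rose, where 10.6% of all genes rose and 8.45% fell. All fold changes, here and below, are log2 values ± SE with 4 libraries a group from quasi-likelihood tests in edgeR, and adjusted p-values are Benjamini-Hochberg values over all tested genes.

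**Figure D2:**
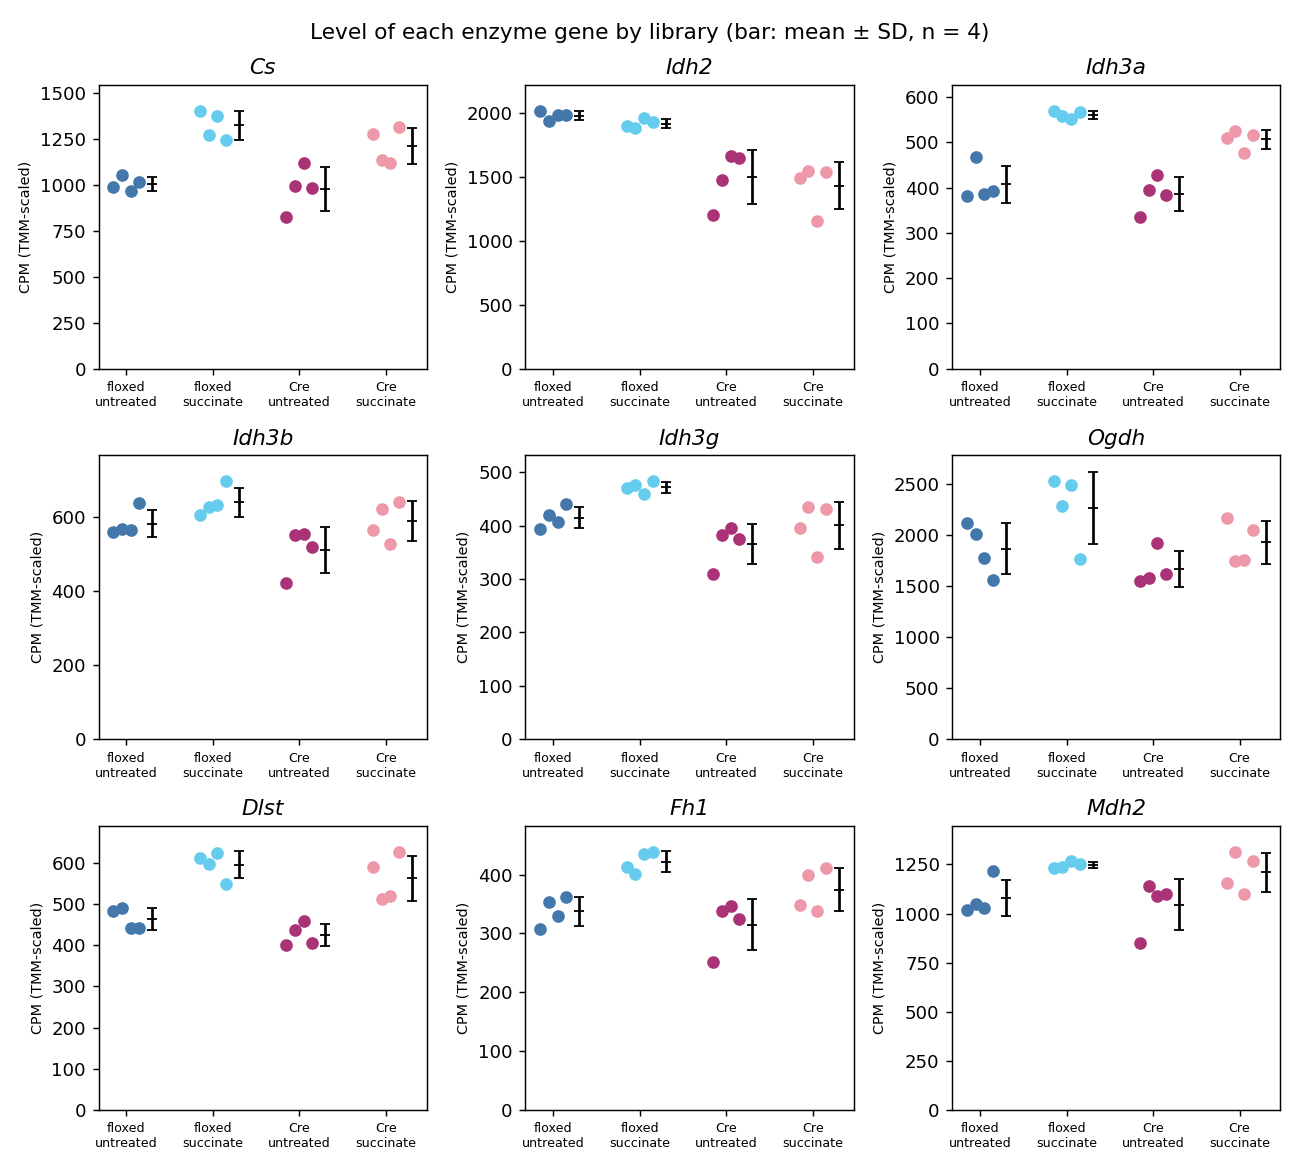
TMM-scaled CPM (vertical axes, linear from 0) of the 9 genes in the 4 groups, with 1 point per library and the mean ± SD (n = 4) beside the points. In Idh3a all treated libraries lie above the untreated ones of their genotype, and in Idh2 all Cre libraries (1156 to 1660 CPM) lie below all floxed ones (1879 to 2016 CPM).

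Cs makes the citrate that starts the cycle. Its level was 988, 1050.5, 963 and 1017 CPM in the 4 untreated floxed libraries and 1402, 1268, 1374 and 1245 CPM in the treated ones, which did not overlap. In Cre hearts it was 827, 992, 1119 and 980.2 CPM untreated and 1276, 1136, 1117 and 1315 CPM treated, where untreated replicate 3 reached just above the lowest treated value. Cs rose by 0.40 ± 0.10 in floxed hearts (adjusted p = 0.0135), a call that ended without untreated floxed replicate 3 (adjusted p = 0.0523). In Cre hearts its log2 fold change was 0.31 ± 0.10 (adjusted p = 0.142), and 0.22 without untreated Cre replicate 1. The average over genotypes was 0.35 ± 0.07 (adjusted p = 0.00211) and passed with any 1 library left out.

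Idh3a, the catalytic subunit of NAD-dependent isocitrate dehydrogenase, showed the largest succinate response of the 9 in floxed hearts. It measured 382, 467, 387 and 393 CPM untreated and 569.9, 557, 551 and 567 CPM treated in floxed hearts. The treated values lay within a narrow band, and untreated replicate 2 was the nearest to them. In Cre hearts the values were 336, 396, 428 and 384 CPM untreated and 509, 524, 476 and 517 CPM treated, again without overlap. Idh3a rose by 0.46 ± 0.09 in floxed hearts (adjusted p = 0.00339) and by 0.39 ± 0.09 in Cre hearts (adjusted p = 0.0462). The floxed call held with each library left out in turn, whereas the Cre call was lost in 7 of 8 such fits and had adjusted p = 0.19 without untreated Cre replicate 1. Averaged over genotypes it rose by 0.43 ± 0.06 (adjusted p = 2.5e-04).

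The non-catalytic partners Idh3b and Idh3g did not pass. Idh3b had group means of 583 ± 36.8 and 641 ± 39.1 CPM (SD, n = 4) in untreated and treated floxed hearts, and 511 ± 62.0 and 589.6 ± 53.0 CPM in untreated and treated Cre hearts. Its log2 fold changes were 0.14 ± 0.10 (adjusted p = 0.393) and 0.21 ± 0.10 (adjusted p = 0.367). Idh3g ran from 394 to 441 CPM in untreated and from 459 to 483 CPM in treated floxed libraries, which did not overlap. Its log2 fold change there was 0.19 ± 0.10 (adjusted p = 0.21), and in Cre hearts 0.13 ± 0.10 (adjusted p = 0.566). Without untreated Cre replicate 1 the Cre values were 0.11 for Idh3b and 0.05 for Idh3g, and that of Idh3g was 0.08 without treated Cre replicate 2. Without treated floxed replicate 4 the floxed value of Idh3b was 0.09. Averaged over genotypes Idh3b stood at 0.17 ± 0.07 (adjusted p = 0.0988) and Idh3g at 0.16 ± 0.07 (adjusted p = 0.106), both with 95% intervals above 0 (0.02 to 0.32 and 0.02 to 0.30).

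Idh2, the NADP-dependent isocitrate dehydrogenase of mitochondria, was the 1 gene of the 9 with a negative succinate estimate. The floxed libraries held 2016, 1937, 1982 and 1979.7 CPM untreated and 1897, 1879, 1963 and 1925 CPM treated. The Cre libraries held 1204, 1475, 1659.7 and 1648 CPM untreated and 1488, 1542, 1156 and 1539.7 CPM treated. Treated and untreated values overlapped in both genotypes, with 1 low library in each Cre group. The log2 fold change with succinate was -0.05 ± 0.11 in floxed hearts (95% interval -0.28 to 0.18) and -0.06 ± 0.11 in Cre hearts (-0.30 to 0.17), the latter becoming -0.17 without untreated Cre replicate 1 and 0.01 without treated Cre replicate 3. Averaged over genotypes it was -0.06 ± 0.08 (adjusted p = 0.659), with a 95% interval of -0.22 to 0.11 that does not reach the average estimate of Cs, Idh3a, Dlst or Fh1.

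The 2-oxoglutarate dehydrogenase complex is made of Ogdh, which decarboxylates 2-oxoglutarate, Dlst, which passes the succinyl group to coenzyme A, and the shared subunit Dld. Dlst measured 484, 489.8, 442 and 442 CPM untreated and 612, 598, 624 and 549 CPM treated in floxed hearts. In Cre hearts it measured 400.1, 437, 459 and 405 CPM untreated and 589.5, 513, 520.0 and 628 CPM treated. The treated libraries lay above the untreated ones in both genotypes. Dlst rose by 0.36 ± 0.09 in floxed hearts (adjusted p = 0.0139), by 0.40 ± 0.09 in Cre hearts (adjusted p = 0.0373) and by 0.38 ± 0.06 on average (adjusted p = 5.8e-04). The floxed call ended without untreated floxed replicate 3 (adjusted p = 0.0551) or treated floxed replicate 3 (0.052), and the Cre call in 7 of 8 fits with 1 library left out, with adjusted p = 0.165 without untreated Cre replicate 1.

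Ogdh had the widest relative spread of the 9 genes in the floxed groups, with coefficients of variation of 13.4% and 15.5%. Its values were 2116, 2011, 1779 and 1556 CPM untreated and 2528, 2286, 2492 and 1767 CPM treated in floxed hearts, where treated replicate 4 fell among the untreated ones. In Cre hearts the means were 1667 ± 172 CPM untreated and 1929 ± 211 CPM treated (SD, n = 4), and the groups overlapped. Its log2 fold changes were 0.28 ± 0.13 (adjusted p = 0.158), 0.21 ± 0.13 (adjusted p = 0.486) and, on average, 0.25 ± 0.09 (adjusted p = 0.0666). Without treated floxed replicate 4 the floxed value became 0.38 and passed (adjusted p = 0.048).

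Fh1 hydrates fumarate to malate. It measured 308, 353, 329 and 362 CPM untreated and 413, 401, 434 and 439 CPM treated in floxed hearts, without overlap. In Cre hearts it measured 251, 337, 346 and 324 CPM untreated and 348, 398, 339 and 412 CPM treated, where the ranges overlapped. Fh1 rose by 0.32 ± 0.10 in floxed hearts (adjusted p = 0.0481), a call at the edge of the threshold that was lost in all 8 fits with 1 library left out (adjusted p = 0.0507 to 0.161). Its Cre value was 0.25 ± 0.10 (adjusted p = 0.278), and 0.14 (adjusted p = 0.689) without untreated Cre replicate 1. The average of 0.29 ± 0.07 passed (adjusted p = 0.0113) and held in all 16 fits with 1 library left out.

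Mdh2 oxidises malate back to oxaloacetate and makes NADH. It measured 1019.8, 1048, 1029 and 1216 CPM untreated and 1231, 1237, 1269 and 1251 CPM treated in floxed hearts, where the treated values were close together and just above untreated replicate 4. In Cre hearts the means were 1045 ± 131 CPM untreated and 1209.9 ± 99.1 CPM treated (SD, n = 4). Its log2 fold changes were 0.21 ± 0.10 in floxed hearts (adjusted p = 0.181) and 0.21 ± 0.10 in Cre hearts (adjusted p = 0.356), and the Cre value was 0.11 without untreated Cre replicate 1. The average rose by 0.21 ± 0.07 (adjusted p = 0.0467), a call lost in 14 of 16 fits with 1 library left out (0.16 with adjusted p = 0.109 without untreated Cre replicate 1).

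**Figure D3:**
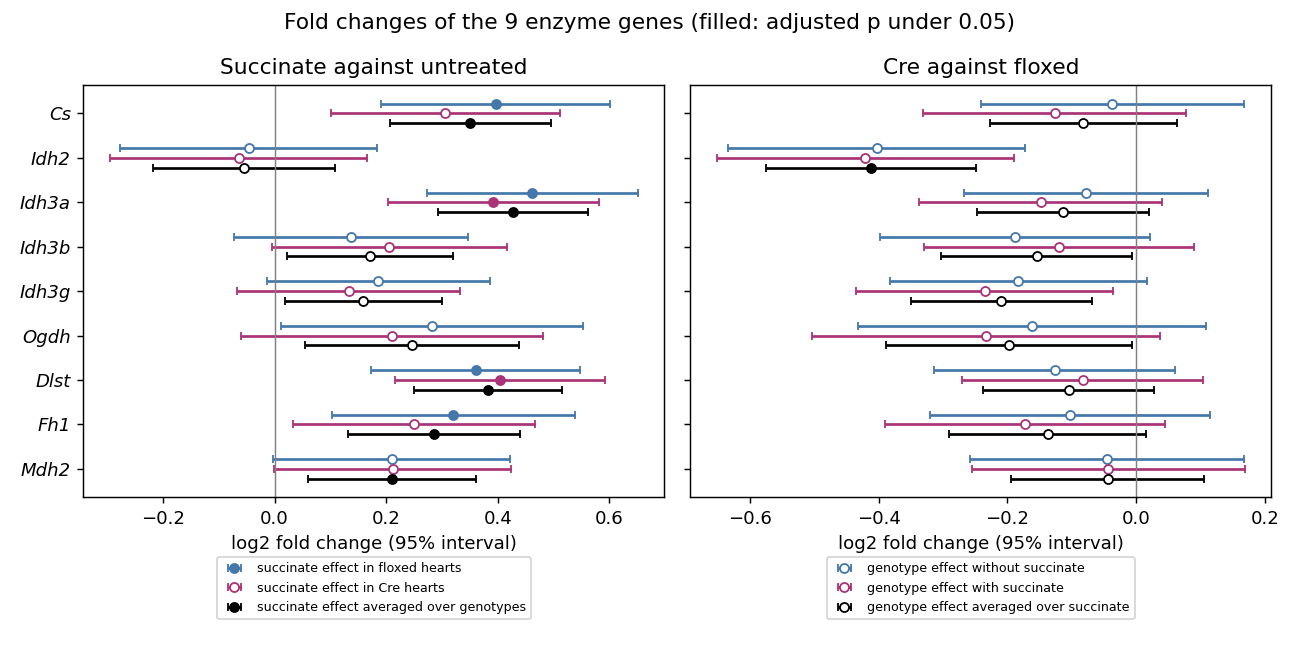
Log2 fold change with its 95% interval (horizontal axes) for each of the 9 genes (vertical axis), for succinate against untreated at left and Cre against floxed at right, where filled points have adjusted p under 0.05. Idh2 sits near 0 for succinate and at -0.40 to -0.42 for genotype, and the other 8 genes lie above 0 for succinate.

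Between genotypes Idh2 was the gene that differed. Its group means were 1979 ± 32.4 CPM in untreated and 1916 ± 36.4 CPM in treated floxed hearts, against 1497 ± 213 CPM in untreated and 1431 ± 185 CPM in treated Cre hearts (SD, n = 4 each). All 8 Cre libraries were below all 8 floxed ones, and the spread within the Cre groups was several times that within the floxed groups. Within 1 treatment such a separation was seen in 2.33% of all genes without succinate and 3.54% with it. Its share over both treatments together was not counted. Averaged over succinate, Idh2 was lower in Cre hearts with a log2 difference of -0.41 ± 0.08 (adjusted p = 0.00874), the 1 gene of the 9 to pass, where 0.575% of all tested genes were lower and 1.3% higher in Cre hearts. This call held in all 16 fits with 1 library left out, at -0.37 (adjusted p = 0.0099) without untreated Cre replicate 1 and -0.37 (adjusted p = 0.0165) without treated Cre replicate 3. Within 1 treatment 0 of 9 passed edgeR's test. Idh2 stood at -0.40 ± 0.11 (adjusted p = 0.237) without succinate, where 0.0205% of genes were lower and 0.089% higher and where 1 of the 9 had an unadjusted p under 0.05. It stood at -0.42 ± 0.11 (adjusted p = 0.0993) with succinate, where 0.144% were lower and 0.548% higher and where 2 of the 9 had an unadjusted p under 0.05. DESeq2 called Idh2 alone of the 9 in both of these comparisons.

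The other 8 genes had negative estimates in every genotype comparison, none of which passed. The median log2 difference of the 9 was -0.13 without succinate, -0.15 with it and -0.14 on average, against medians of 0.0022, -0.0089 and -0.0044 over all genes. Groups did not overlap, with Cre lower, for Idh2 and Idh3b without succinate (2.33% of all genes) and for Idh2, Idh3a and Idh3g with it (3.54%). Next to Idh2 on average came Idh3g at -0.21 ± 0.07 (adjusted p = 0.134, 95% interval -0.35 to -0.07) and Ogdh at -0.20 ± 0.09 (adjusted p = 0.334, -0.39 to -0.0067). Idh3b stood at -0.15 ± 0.07 (adjusted p = 0.331, -0.30 to -0.0059). Cs stood at -0.08 ± 0.07 (95% interval -0.23 to 0.06) and Mdh2 at -0.04 ± 0.07 (-0.19 to 0.11). The intervals of Idh3a, Dlst and Fh1 also included 0. Without untreated Cre replicate 1 the untreated differences of Cs and Mdh2 changed sign to 0.03 and 0.04, and those of Idh3a, Idh3b, Idh3g and Fh1 shrank to -0.02, -0.11, -0.11 and -0.01. Without treated Cre replicate 3 the treated differences of Idh3b, Dlst and Mdh2 were -0.07, -0.05 and -0.0020, against -0.12, -0.08 and -0.04 with it. Beside these values, the ventricular marker sum averaged 46214 and 46498 CPM in untreated and treated floxed hearts. It averaged 41302 and 44938 CPM in untreated and treated Cre hearts, with 0 of its 8 genes called. Without succinate the sums did not overlap, at 37046 to 43979 CPM in Cre and 44210 to 50700 CPM in floxed libraries. With succinate the sums overlapped. The part of the marker sum in the genotype differences was not tested.

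Whether genotype changed the succinate response was asked with the interaction term. It passed for 0 of the 9 genes and for 0 (0%) of all 14607 genes by edgeR, with 0 of the 9 at an unadjusted p under 0.05. DESeq2 called 4 genes, none of the 9. The largest estimate was that of Cs, at -0.09 ± 0.14 (Cre response minus floxed response), with a 95% interval of -0.38 to 0.20 for the difference between responses. The interval was -0.34 to 0.20 for Idh3a, -0.22 to 0.31 for Dlst and -0.45 to 0.31 for Ogdh. That more of the 9 genes passed in floxed than in Cre hearts is therefore not a difference between genotypes that was shown.

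Because members of 1 library share its scaling, 4 ratios between genes were also formed within each library, and each was tested in 6 comparisons by two-sided exact permutation of the library labels, with adjustment over the 24 tests. Idh3a relative to the geometric mean of Idh3b and Idh3g averaged 0.83 in untreated and 1.02 in treated floxed hearts, and 0.894 and 1.05 in Cre hearts. The groups did not overlap in either genotype. The log2 ratio rose by 0.27 on average over genotypes (exact permutation p = 0.0004, the smallest that 4900 relabellings give; adjusted p = 0.0049). Within a genotype the differences were 0.31 and 0.23, each at the smallest p that 4 libraries against 4 allow (exact permutation p = 0.0286, adjusted p = 0.0857). Per unit length, Idh3a FPKM was 0.444 ± 0.0545 of Idh3b FPKM in untreated and 0.555 ± 0.033 in treated floxed hearts (SD, n = 4).

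Idh2 relative to Idh3a, the ratio of the NADP-dependent to the NAD-dependent enzyme's transcripts, was highest in untreated floxed and lowest in treated Cre hearts. The CPM ratio averaged 4.9 ± 0.511 in untreated floxed, 3.42 ± 0.103 in treated floxed, 3.87 ± 0.304 in untreated Cre and 2.82 ± 0.262 in treated Cre hearts (SD, n = 4). The log2 ratio fell by 0.49 with succinate on average (exact permutation p = 0.0004, adjusted p = 0.0049), with no overlap in either genotype. It was lower in Cre than in floxed hearts by 0.31 on average (log2 difference -0.31, exact permutation p = 0.0008, adjusted p = 0.0065), with overlap in the untreated hearts. Per unit length the ratio of Idh2 to Idh3a FPKM was 2.12 ± 0.221 in untreated floxed and 1.22 ± 0.113 in treated Cre hearts. Ogdh relative to Dlst differed by -0.14 with succinate on average (exact permutation adjusted p = 0.095), and Mdh2 relative to Cs also by -0.14 (adjusted p = 0.0903), and neither passed.

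**Figure D4:**
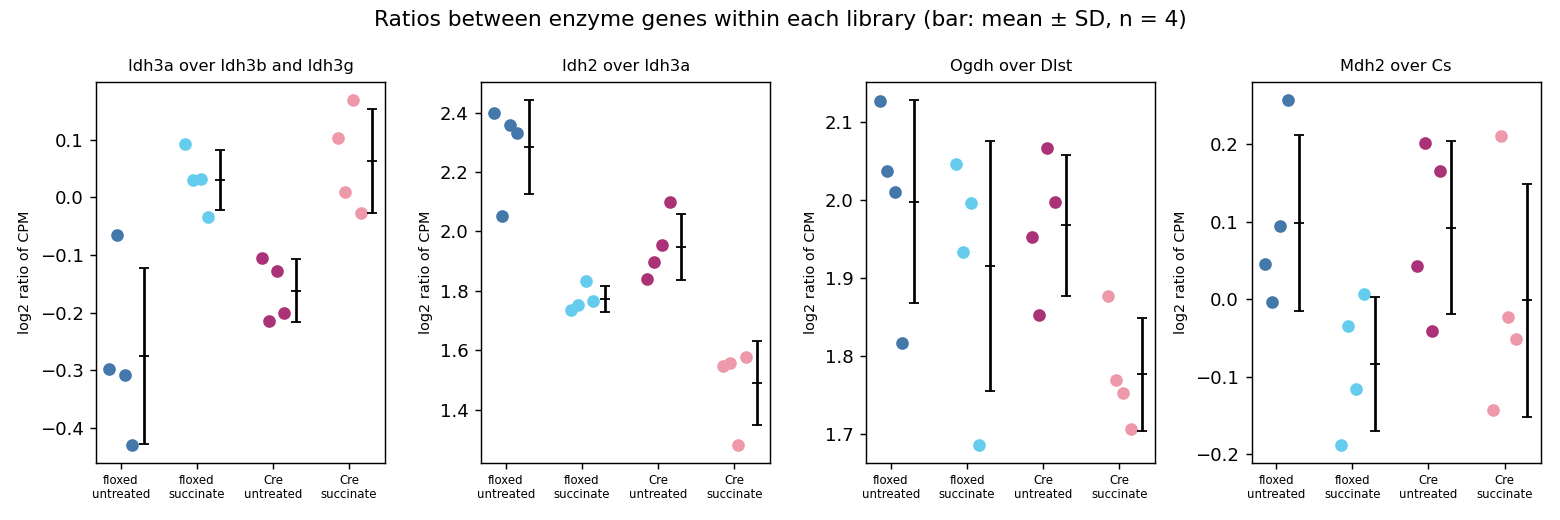
Log2 ratio of CPM (vertical axes) between enzyme genes within each library, by group, with 1 point per library and the mean ± SD (n = 4). Idh3a over Idh3b and Idh3g is higher and Idh2 over Idh3a lower in every treated library than in every untreated library of the same genotype, and the other 2 ratios overlap.

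Across the 16 libraries the 36 pairs of the 9 genes had Pearson correlations of log2 CPM from 0.198 (Idh2 with Dlst) to 0.943 (Cs with Dlst), with a median of 0.732. These points share the group differences and the scaling of each library, and are given as a description. With group means removed the median was 0.634, Idh3b with Fh1 stood at 0.925, and Ogdh with Idh3b was the lowest at -0.164. Of 6680 other genes at a mean log2 CPM of at least 4, the 6 whose profile over the 16 libraries was most like the mean of the 9 were Atp5a1 (r = 0.981), Dele1 (0.977), Acat1 (0.977), Slc25a11 (0.975), Adhfe1 (0.972) and Tufm (0.970). Atp5a1 encodes a subunit of the mitochondrial ATP synthase, Acat1 acts in ketone body and isoleucine breakdown, Slc25a11 carries 2-oxoglutarate and malate across the inner membrane, and Tufm is the mitochondrial translation elongation factor Tu. Without the 2 libraries farthest from the median of that mean profile (untreated Cre replicate 1 and treated floxed replicate 3) the 6 correlations were 0.939 to 0.965. With group means removed they were 0.862 (Tufm) to 0.960 (Atp5a1). The choice by profile used the group differences, so the succinate tests of these 6 genes would carry that choice and are not given.

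The rest of the cycle also had mostly higher levels with succinate. Of the other 9 TCA cycle genes, 7 rose with succinate on average and 0 fell, where 10.6% of all tested genes rose and 8.45% fell. Their median log2 fold change was 0.26. Dld, the shared dehydrogenase subunit, rose by 0.38 ± 0.06 (adjusted p = 5.1e-04), and the succinyl-CoA ligase subunits Sucla2 and Suclg1 by 0.27 ± 0.07 (adjusted p = 0.0133) and 0.28 ± 0.08 (adjusted p = 0.0138). Within floxed hearts 1 of these 9 passed, Dld at 0.44 ± 0.09 (adjusted p = 0.00386), a count near the 7.48% of all genes that rose there. Within Cre hearts 0 passed by edgeR, although 5 had an unadjusted p under 0.05. All 3 of the 2-oxoglutarate dehydrogenase transcripts thus had positive estimates, of which Dlst and Dld passed on average and Ogdh did not.

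Among the cytosolic counterparts, Idh1 and Idh2 make a contrasting pair of values. Idh1, the cytosolic NADP-dependent isocitrate dehydrogenase, rose by 0.82 ± 0.11 in floxed (adjusted p = 1.6e-04) and 0.51 ± 0.10 in Cre hearts (adjusted p = 0.0278), while Idh2 stood near 0 in both. Idh1 had group means of 39.1 ± 3.49, 68.8 ± 7.13, 43.2 ± 5.23 and 61.4 ± 6.79 CPM in untreated floxed, treated floxed, untreated Cre and treated Cre hearts (SD, n = 4). On average 3 of 4 cytosolic genes rose, where 10.6% of all genes rose. Beside Idh1 these were Mdh1 (0.32 ± 0.07, adjusted p = 0.0059) and Aco1 (0.25 ± 0.06, adjusted p = 0.00802), while Acly stood at -0.01 ± 0.06. Of the paralogs, Csl (3 to 12 counts) and Mdh1b (0 or 1 count) fell below the filter. The Ogdh relative Ogdhl rose with succinate on average by 0.46 ± 0.09 (adjusted p = 0.0019), and Dhtkd1, which acts on 2-oxoadipate, by 0.94 ± 0.20 (adjusted p = 0.00396). Ogdhl was also lower in Cre hearts on average, with a log2 difference of -0.52 ± 0.09 (adjusted p = 0.0044).

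Of 11 genes that feed or drain the cycle, 7 rose with succinate on average and 0 fell, where 10.6% of all genes rose and 8.45% fell. Got1, the cytosolic aspartate aminotransferase, rose by 0.48 ± 0.06 (adjusted p = 6.9e-05), and the pyruvate dehydrogenase genes Dlat, Pdhb and Pdhx by 0.37 ± 0.06 (adjusted p = 4.5e-04), 0.37 ± 0.06 (adjusted p = 7.5e-04) and 0.29 ± 0.06 (adjusted p = 0.00209). In floxed hearts 4 of 11 rose (Got1, Dlat, Pdhb and Pdha1), where 7.48% of all genes rose. In Cre hearts 2 rose (Got1 and Pdhx), where 0.602% of all genes rose. Between genotypes, averaged over succinate, the NADP-dependent mitochondrial malic enzyme Me3 was lower in Cre hearts with a log2 difference of -0.45 ± 0.06 (adjusted p = 6.9e-04), and Me2 was higher at 0.31 ± 0.07 (adjusted p = 0.0322).

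Of 9 general mitochondrial genes (porins, import subunits, Tfam and cytochrome c), 1 rose with succinate on average, near the 10.6% of all tested genes that rose. It was Cycs at 0.37 ± 0.09 (adjusted p = 0.0111), and the median of this list was 0.09. Of 8 ventricular cardiomyocyte markers 1 rose on average, again near that share, Ryr2 at 0.60 ± 0.14 (adjusted p = 0.00635). The median of these markers was 0.08, against 0.25 for the 9 enzyme genes. The ventricular marker sums of treated and untreated libraries overlapped in both genotypes. In floxed hearts 3 of 5 macrophage markers fell with succinate, where 5.64% of all genes fell. They were Csf1r by 0.46 ± 0.13 (adjusted p = 0.0244), Adgre1 by 0.72 ± 0.21 (adjusted p = 0.0305) and C1qa by 0.75 ± 0.22 (adjusted p = 0.0365). The summed level of the 5 macrophage markers was 307 to 441 CPM in untreated and 176 to 343 CPM in treated floxed hearts. In Cre hearts 0 of these 5 passed, with 2 at an unadjusted p under 0.05, but all 5 estimates were negative (median -0.37, against -0.65 in floxed hearts). Averaged over genotypes 3 of 5 fell, where 8.45% of all genes fell. The interaction passed for 0 genes by edgeR, so a fall confined to floxed hearts was not shown. Nppa, an atrial and stress gene, fell by 1.92 ± 0.44 with succinate in floxed hearts (adjusted p = 0.0122). The part of these cells in the enzyme gene results was not tested.

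Between genotypes, beside the lower Idh2, 3 of 3 tested skeletal muscle markers were higher in Cre hearts on average, where 1.3% of all genes were higher. The summed levels of the skeletal muscle markers were 12.2 to 25.4 CPM in Cre and 0.842 to 1.97 CPM in floxed libraries. Atp2a1 led them at 5.04 ± 0.18 (adjusted p = 2.7e-12), while the fast myosins Myh1 and Myh2 had at most 6 and 3 counts in any library. Nppa was higher at 2.30 ± 0.31 (adjusted p = 0.00135), as was 1 of 5 fibroblast markers, Lum, at 0.64 ± 0.15 (adjusted p = 0.0397). Endothelial, mural, macrophage, brown adipocyte and erythroid markers did not pass between genotypes, and the white adipocyte markers had at most 34 counts per gene in any library and were not tested. How far these differences bear on Idh2 was not tested.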

How the data were processed

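Bulk heart RNA from 16 mouse libraries in 4 groups of 4 was extracted with TRIzol and made into libraries with the VAHTS Universal V6 kit, per the labels' protocols; no label states the strandedness. The authors deposited raw read counts per gene and, in a second table, FPKM values. The build GRCm39 and the tools HISAT2, HTSeq, fastp, DESeq2 and R 3.2.0 are named, without roles, per the submitters' processing notes. In the deposited FPKM table the values equal counts scaled by 1 length per gene and by depth.

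Counts were fitted with edgeR 4.0.16 (R 4.3.3): genes kept by filterByExpr with a minimum count of 10, TMM scaling, a mean for each of the 4 groups over all 16 libraries, robust quasi-likelihood tests, and Benjamini-Hochberg adjustment over all 14607 tested genes with a threshold of 0.05. There were 7 contrasts: succinate within each genotype and averaged, genotype within each treatment and averaged, and the interaction. CPM values are TMM-scaled. Ratios between genes were tested by exact permutation of library labels (within the other factor for averages). The fit was tested on simulated data. Members and lists were chosen with earlier results of these data known. The text names all 9 genes in every comparison; of each other list, genes that passed (up to 4, by smallest p) or the gene of smallest p; and the 6 genes most like the mean profile. The values of 1 gene that this rule names are not reported here. Alternatives were DESeq2 1.42.0, limma 3.58.1 (voom with quality weights, and log2(FPKM + 1) or log2(FPKM + 0.1)), RLE size factors, other filters, removal of mitochondrially encoded genes, a replicate block, and each library left out. Libraries of a group differed by 10.7 to 57.8 times the sampling noise of counts (chi-square per degree of freedom), so none was the same library deposited again, which does not show that they came from separate animals. Same-numbered libraries of different groups did not in general deviate together (24 correlations, -0.121 to 0.320, median 0.0194), so the numbers were not taken as pairs. The highest were both of replicate 1 between genotypes, at 0.320 in treated and 0.269 in untreated hearts, so a link between those libraries is not excluded.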

Additional observations from a re-analysis of the deposited data

Results flagged for a closer look

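In groups of 4 libraries, 5 of 52 sets of values held 1 library far from the other 3 (by Dixon's criterion on the gap relative to the range), and chance alone flags about 1 in 20 such sets. Idh2 stood at 1156 CPM in treated Cre replicate 3, below the 1488 to 1542 CPM of the other 3, and the log2 ratio of Idh2 to Idh3a was 1.28 in the same library. Idh3a stood at 467 CPM in untreated floxed replicate 2, above the others of its group. In untreated floxed replicate 4, Idh3b stood at 638 CPM and Mdh2 at 1216 CPM, each above the other 3 libraries.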

How the results depend on the processing

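Idh3a, Dlst, Cs and Fh1 kept their averaged succinate call, and Idh2 its averaged genotype call, under all 10 other settings (other tools, scalings, filters, units and the replicate block) and all 16 fits with 1 library left out. Mdh2 kept its averaged call in 5 of the 10 and 2 of the 16, and Fh1 its floxed call in 5 of the 10 and 0 of 8. In Cre hearts Idh3a and Dlst each kept the call in 6 of the 10 and 1 of 8. For the 4 ratios between genes, deposited FPKM could give no other result, because it shifts each log2 ratio by the same constant in every library. With a pseudocount of 0.1 CPM they stayed on the same side of the threshold. That pseudocount could move them little, as the lowest value of any of the 9 genes was 251 CPM. The lowest count of any of the 9 genes in a library was 8771 reads, so counting error is small beside the spread between libraries.

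Numbers of called genes moved by over 1.5 times as follows, and the cause was not tested. For succinate in floxed hearts (1917 genes), voom called 2958, log2(FPKM + 1) 1139 and log2(FPKM + 0.1) 1145. For succinate in Cre hearts (134 genes, 2 of the 9), DESeq2 called 485, log2(FPKM + 1) 58 and log2(FPKM + 0.1) 41. Of the 9, 1 was called there with RLE size factors, without mitochondrially encoded genes or on log2(FPKM + 1), and 0 with no filter or on log2(FPKM + 0.1). For genotype without succinate (16 genes, 0 of the 9), DESeq2 called 90 and 1 of the 9, and log2(FPKM + 1) at a mean FPKM of at least 1 called 7. For genotype with succinate (101 genes, 0 of the 9), DESeq2 called 327 and voom 198, each with 1 of the 9, log2(FPKM + 1) called 45, or 51 with the FPKM filter, and log2(FPKM + 0.1) 61. For genotype on average (274 genes, 1 of the 9), DESeq2 called 603 with 2 of the 9 (Idh2 and Idh3g), voom 421, and the FPKM fits with + 1 called 173 without and 176 with the filter. For the interaction (0 genes), DESeq2 called 4, log2(FPKM + 1) 1 and log2(FPKM + 0.1) 2. The share of higher calls moved by over 10 points from 57.0% to 43.5% (floxed) and from 55.6% to 42.1% (average) on filtered FPKM, to 45.4% on log2(FPKM + 0.1) for the average, and from 81.2% to 62.2% by DESeq2 and 70.6% on log2(FPKM + 1) for genotype without succinate. With 1 library left out it ranged from 46.5% (without untreated Cre replicate 4) to 75.0% for succinate in Cre hearts, against 65.7%, and from 63.6% to 100% for genotype without succinate, and moved by under 10 points in the other 4 comparisons with calls.

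A replicate block was also run, although the numbers were not taken as pairs (3 of 24 correlations over 0.1, and 3 of 16 libraries correlating best with their own number). It called 4 of the 9 in floxed hearts, 1 in Cre hearts (Idh3a), 5 on average and 1 for averaged genotype. Over all genes it called 1903, 136, 2826, 11, 92, 298 and 0 in the 7 comparisons.

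With 1 library left out, succinate in floxed hearts called 1018 to 1989 genes and 1 to 4 of the 9, the fewest of the 9 without untreated floxed replicate 3. Succinate in Cre hearts called 22 to 142 genes and 0 to 2 of the 9. Genotype called 4 to 23 genes without succinate, 44 to 92 with it and 156 to 308 on average, the last lowest without treated Cre replicate 3. Sign changes among uncalled values were as follows. Idh2 ranged from -0.17 to 0.011 for succinate in Cre hearts. Without succinate the genotype value of Cs ranged from -0.11 to 0.033 and that of Mdh2 from -0.090 to 0.038, and voom gave Mdh2 0.026. Interaction values ranged from -0.12 to 0.075 for Idh2, -0.022 to 0.12 for Idh3b, -0.13 to 0.021 for Idh3g, -0.17 to 0.0071 for Ogdh, -0.013 to 0.082 for Dlst and -0.093 to 0.048 for Mdh2 (voom -0.088, minimum count of 50 -0.0025). Ratio differences with a sign change or a call gained were, for Idh3a over Idh3b and Idh3g, 0.25 to 0.38 for succinate in floxed hearts, 0.062 to 0.18 for genotype without succinate, -0.0019 to 0.064 with it and 0.048 to 0.11 on average. Idh2 over Idh3a ranged from -0.59 to -0.48 for succinate in floxed hearts and -0.41 to -0.30 for genotype without succinate. Ogdh over Dlst ranged from -0.17 to -0.10 for averaged succinate and -0.091 to 0.012 for genotype without succinate. Mdh2 over Cs ranged from -0.22 to -0.13 in floxed hearts and -0.17 to -0.11 on average for succinate, and -0.042 to 0.047 for genotype without succinate.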
